A study of Rattus norvegicus with 2 samples.

Results

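Nupr1 and 8 further genes of the integrated stress response (Atf3, Atf4, Ddit3, Ddit4, Trib3, Chac1, Sesn2 and Asns) were followed in hypothalamus RNA from both sexes of the spontaneously hypertensive rat (SHR), which is an inbred strain whose blood pressure rises with age. The 9 genes, of 39500 genes and unnamed transcripts on the array, were chosen from the male minus female differences of these same arrays and from known membership of the pathway, so that their differences are given as a description and no test was run on them. The male group was 1 pool of RNA from 5 male SHR and the female group 1 pool from 5 female SHR, all aged 9 weeks, with 100 ng of RNA from each rat, no other treatment and no second strain. Each pool was labelled with Cy3 and hybridised to 1 single-colour microarray. The spread between rats was therefore lost in the pools, and no statement extends from these pools to the sexes.

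The integrated stress response begins when kinases that sense unfolded proteins, missing amino acids, haem deficiency or viral RNA phosphorylate the translation factor eIF2. General protein synthesis then falls while the Atf4 transcript is translated more, so the transcription factor ATF4 is controlled to a large part without a change of its mRNA. ATF4 and its partners switch on genes for amino acid supply, for feedback and, when stress lasts, for cell death. NUPR1 is a small chromatin-associated protein whose gene is switched on by many kinds of stress, ATF4 activation among them. In the brain, phosphorylation of eIF2 also bears on synaptic plasticity and on the sensing of amino acid shortage.

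The sequence just upstream of a gene can hold the composite element that ATF4 binds together with C/EBP proteins. RefSeq promoter windows of build GRCr8, from 250 bases before to 50 bases after the start site, were found for 8 of the 9 genes, and the letters TGATGNAA, the core of that element, were searched on both strands. The core was present in the windows of Nupr1, Chac1 and Trib3, that is 3 of 8, and in 3.98% of all 33469 windows. The letters TGACGTCA, the cyclic AMP response element, were in none of the 8 and in 1.83% of all windows, and the element named ERSE was in none of the 8 and in 0.0657% of all. The Nupr1 window is shown whole, because this gene carries the difference described next, and the other windows are cut to 60 bases around the core to set the element beside it. Capitals mark the core, read on the strand of the gene, where it appears as the reverse complement of the letters searched. The core begins 55 bases before the start site in Nupr1 (chr1:190645852-190646151, minus strand), 167 bases before it in Chac1 (chr3:126795938-126795997, plus strand) and 21 bases before it in Trib3 (chr3:161275521-161275580, minus strand).
Nupr1: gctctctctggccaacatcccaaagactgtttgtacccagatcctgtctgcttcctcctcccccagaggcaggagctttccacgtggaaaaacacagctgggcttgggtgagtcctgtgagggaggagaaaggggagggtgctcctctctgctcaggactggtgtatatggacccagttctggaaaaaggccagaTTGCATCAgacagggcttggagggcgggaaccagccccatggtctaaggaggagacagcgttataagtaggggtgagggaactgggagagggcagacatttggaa
Chac1: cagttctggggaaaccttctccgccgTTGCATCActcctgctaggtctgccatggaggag
Trib3: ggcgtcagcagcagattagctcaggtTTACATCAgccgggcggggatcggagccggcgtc
The Nupr1 and Chac1 cores are the same 8 letters, and that of Trib3 differs from them at the position that the search left free. Of these 3 genes Nupr1 was far higher in the male pool and Chac1 nearly level. Trib3 was lower in the male pool on 1 dim spot, with limits given below.

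Both arrays measured this tissue to a like depth. Of 58717 spots for rat transcripts, the software called 71.6% well above background for the male pool and 73.0% for the female pool, no spot was saturated, and the 75th percentile of signal was 2203 and 2254 units. Both arrays measured 24140 genes and transcripts above background, whose median log2 difference was -0.016, the 5th percentile -0.28 and the 95th 0.34. Of 18 genes that define the hypothalamus, such as Avp, Oxt, Pomc and Hcrt, 16 were well above background on both arrays, with 4 higher and 12 lower in the male pool. Differences are given as male minus female log2 signal, with signals taken relative to the 75th percentile of their own array. A large share of the spots with wide differences lay together in patches on the slide, which are areas where neighbouring spots of other genes also differ, and a value of a named gene that rests on such spots alone is marked as from a patch.

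Nupr1, on chromosome 1, stood apart between the pools by 4.53-fold on its first probe and 4.77-fold on its second, with the male pool higher. The first probe gave male signals of 356, 349, 333, 336, 350, 360, 372, 366 and 399 units on 9 usable spots. On the same spots the female signals were 78.4, 80.9, 63.8, 80.4, 80.1, 74.5, 95.6, 82.6 and 94.8 units. The pools did not overlap on any spot, and the female signals still lay well above 12.9 units, the lowest probe signal that counted as above background on that array. The second probe, on 10 spots, gave male signals from 290 to 380 units and female signals from 61.7 to 76.5 units. Over both probes the lowest male spot, at 290 units, was 3.03 times the highest female spot, at 95.6 units. The log2 difference was 2.18 on the first probe (4.53-fold, SD of spots 0.12, n = 9 spots) and 2.25 on the second (4.77-fold, SD of spots 0.12, n = 10 spots). These SDs cover printing and scanning of spots on 2 arrays, not rats, and since bulk RNA was measured, more cells that express the gene cannot be told apart from more RNA per cell. Of the 19 usable spots 3 lay in patches, and without them the differences were 2.19 and 2.21.

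**Figure D1:**
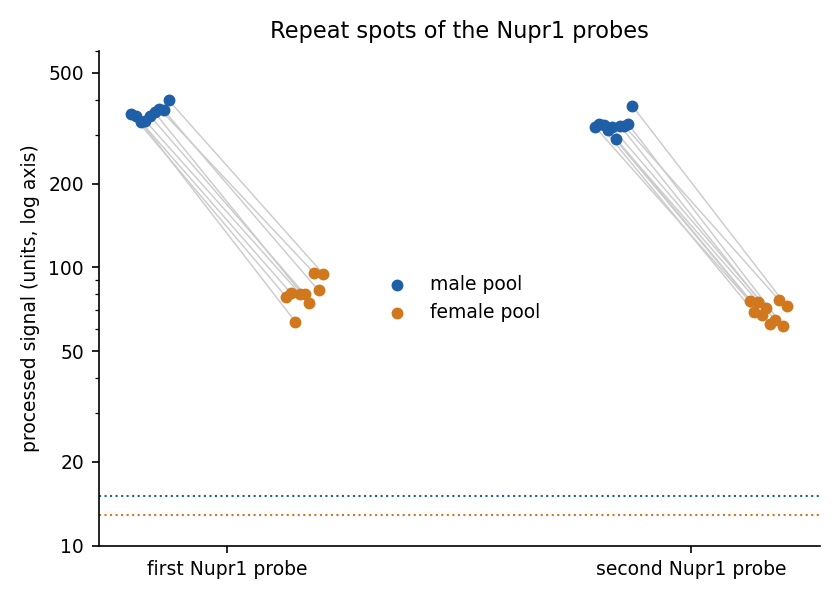
Processed signal in units (log axis) of every usable repeat spot of the Nupr1 probes, with lines joining the same spot on the male and the female array and dotted lines at the lowest probe signal well above background on each array (15.1 and 12.9 units). All male spots lie between 290 and 399 units and all female spots between 61.7 and 95.6 units.

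Within each array, Nupr1 moved further up the ranking of probes in the male pool. Among 45591 rat probes its first probe stood at percentile 70.8 of signal in the male pool and at 52.9 in the female pool, and its second at 69.7 and 51.1. A percentile ranks the brightness of probes, which also depends on how well each probe binds, and is not an amount of RNA to be compared between genes. Of all genes and transcripts above background in either pool, 4.17% stood 2-fold or more apart in either direction. The share was 2.70% among those measured on both arrays with a mean log2 signal between -4 and -3, the range in which Nupr1 lay. The 2 shares are over different sets of genes and are not to be compared. As Nupr1 was chosen for its difference, nothing is read from these shares about the gene itself.

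Probes that were printed many times give differences with less spot noise, and among them Nupr1 stood at the far end. Repeat spots cover printing and scanning on 2 arrays, not rats. As Nupr1 was chosen for its difference, nothing is read from its rank. Of 1308 probes with at least 8 usable spots and a signal well above background on both arrays, 0.459% were at least 2-fold apart, that is 6 probes, and the Nupr1 probes ranked 1 and 2 by size of difference. They also took these ranks with centring on the median, with quantile normalization, with normexp background correction and without spots in patches. The median size of the difference over the 1308 probes was 0.047 and the 99th percentile was 0.84. The other named genes past 2-fold were Cd74, the invariant chain of MHC class II, at 1.58, Ptgds, which encodes the prostaglandin D synthase of leptomeninges and choroid plexus, at 1.52, and Col3a1, a fibrillar collagen, at 1.21. Without spots in patches these values were 1.57, 1.52 and 1.21. None of the 6 was higher in the female pool, and at 1.5-fold 30 probes favoured the male pool and 0 the female pool.

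**Figure D2:**
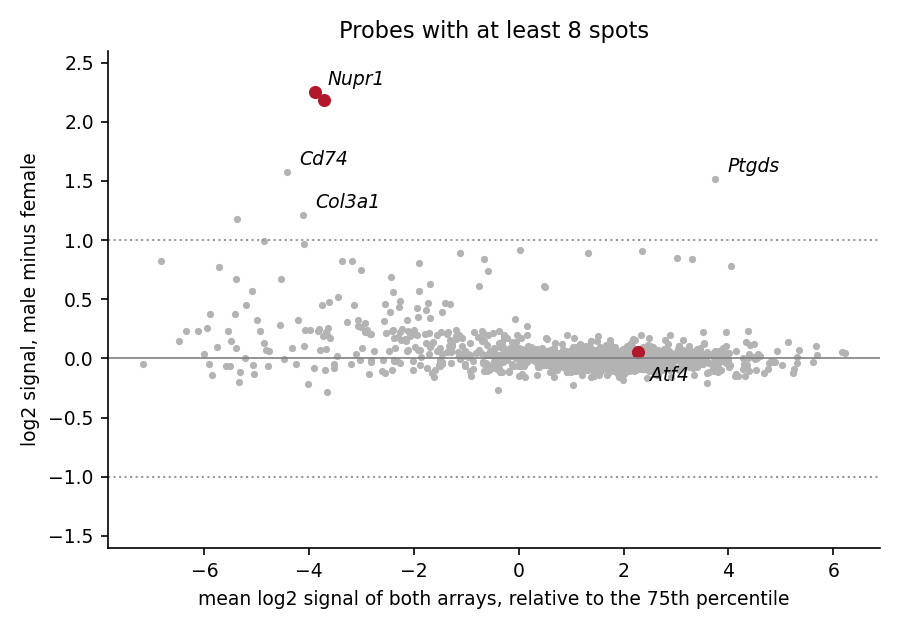
Difference between the pools (log2, male minus female) against mean log2 signal relative to the 75th percentile for the 1308 probes with at least 8 spots, with Nupr1 and Atf4 in red and dotted lines at 2-fold. The Nupr1 probes lie at 2.18 and 2.25, above Cd74 at 1.58, and Atf4 lies at 0.06.

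Over single-spot genes the picture was less orderly. Among all genes and transcripts measured on both arrays 70 had a larger difference towards the male pool than Nupr1. Each of the 70 rested on a single spot, and 67 of these spots lay in patches. For all genes and transcripts, 24140 were measured on both arrays with every usable spot, and 21892 without spots in patches. Without spots in patches, 3 of 21892 genes and transcripts exceeded Nupr1. Nothing is read from this place of Nupr1, since the gene was chosen for its difference.

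Among lists of cell type genes, those of meningeal fibroblasts and red blood cells had the largest median differences, both towards the male pool. The counts of genes higher in the male pool stand beside 45.0% of all genes and transcripts measured on both arrays. Each of 18 meningeal fibroblast genes was measured above background in both pools, and each was higher in the male pool, from 0.11 for Pdgfra to 1.82 for Ogn. The value of Ogn was from a patch, and its other probe, outside any, gave 1.60. The median of the list was 0.84, and 0.73 without spots in patches. Their summed signal was 22055 units in the male pool and 12439 units in the female pool. Red blood cell genes had a median of 0.84. All 5 measured on both arrays were higher in the male pool, from 0.48 for Alas2 to 0.88 for Ahsp. The summed signal was 52371 against 31183 units over the 6 measured on at least 1 array. Most of this sum came from 1 probe, that of Hba-a1, at 48400 against 28900 units. Among choroid plexus and ependyma genes 9 of 10 were higher, from -0.13 for Otx2 to 1.02 for Igfbp2 around a median of 0.24. The value of Otx2 was from a patch, and its other probe gave 0.31. Kcnj13, at background in the female pool, was at least 3.82-fold higher on 1 dim spot, at 48.1 against 5.31 units (male against female pool). Kl, at background in the male pool, went the other way by at least 1.14-fold. It also rested on 1 dim spot, at 5.39 against 17.7 units. Microglia genes were higher in 11 of 13 cases, from -0.12 for Tmem119 to 1.58 for Cd74, oligodendrocyte genes in 13 of 14, from -0.09 for Mal to 0.52 for Enpp6 (from a patch), and astrocyte and tanycyte genes in 9 of 10, from -0.15 for Crym to 0.46 for Vim. Their medians were 0.12, 0.10 and 0.10. Endothelial and mural genes ranged from -0.44 for Abcb1a (from a patch) to 0.70 for Kdr, with a median of 0.05, and of 0.12 without spots in patches. Neuron genes were lower in 11 of 12 cases, with a median of -0.06 and a range from -0.15 for Snap25 to 0.08 for Syt1. The genes that define the hypothalamus had a median of -0.08, from -1.22 for Kiss1, the kisspeptin gene, to 0.60 for Ghrh, the growth hormone releasing hormone gene. Kiss1 rested on 1 dim spot, at 23.6 units in the male pool and 56.1 units in the female pool. In the anterior pituitary list, Tshb and Cga, the genes of the thyrotropin subunits, were at 3.64 and 2.03, while Prl, the prolactin gene, favoured the female pool at least 7.91-fold. The spots of Cga and Prl lay in patches. Tshb rested on 1 spot, at 257 units in the male pool and a dim 21.2 units in the female pool. The median of the 6 pituitary genes measured on both arrays was 0.22. The difference of Nupr1 was larger than that of each meningeal, red blood cell and choroid plexus gene measured on both arrays, but smaller than that of Tshb. The part of these cell types in it was not tested.

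Atf3, on chromosome 13, was the other gene of the 9 with a difference past 1.5-fold. It encodes a transcription factor that is induced by ATF4 and also, within minutes, by many stimuli as an immediate early gene. Its single probe gave 77.4 and 71.9 units in the male pool and 45.5 and 38.3 units in the female pool on its 2 spots. Neither spot lay in a patch. The log2 difference was 0.87 (1.83-fold), with a range over the spots from 0.80 to 0.94, against an SD of 0.23 for a single spot at this signal. The signal was low in both pools, at percentiles 52.1 and 45.3, and with normexp background correction, which adds an offset of 50 units, the difference was 0.49 (1.40-fold). Other immediate early genes leaned the same way, at a median of 0.14. Of 26 measured on both arrays 21 favoured the male pool and 5 the female pool, against 45.0% of all higher in the male pool. With each gene taken at its brightest probe, Nr4a1, an orphan nuclear receptor gene, and Fos were highest, both at 0.57, and Maff was lowest at -0.24. Ier2 was at 0.11 on its brightest probe over 10 spots. A second, dimmer probe of Ier2, not well above background in the female pool, favoured the male pool at least 6.74-fold (from a patch).

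Atf4 itself, on chromosome 7, differed little between the pools. It encodes the transcription factor at the centre of the pathway. Its probe, at percentiles 97.1 and 97.0, gave between 10346 and 11226 units in the male pool and between 10242 and 11128 units in the female pool over 10 spots. The ranges overlapped almost fully, although each of the 10 spots was higher in the male pool after scaling. The log2 difference was 0.06 (1.04-fold, SD of spots 0.03, n = 10 spots), with 1 spot in a patch, which placed it at rank 536 of the 1308 probes with many spots.

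Ddit3 and Ddit4 were slightly higher in the male pool. Ddit3, on chromosome 7, encodes CHOP, a transcription factor of the late, death-promoting arm. Its single spot gave 6352 units in the male pool and 5819 units in the female pool, a log2 difference of 0.16 (1.12-fold). That spot lay in a patch, so no value remained for Ddit3 without patches. Ddit4, on chromosome 20, encodes REDD1, an inhibitor of the mTORC1 growth pathway that also responds to hypoxia and glucocorticoids. Its first probe gave 6133 units in the male pool and 5223 units in the female pool, and its second 516 and 449 units. The log2 differences of 0.26 (1.20-fold) and 0.23 (1.18-fold) were of 1 direction and nearly the same size on both probes. They compare with repeat-spot SDs of 0.04 and 0.11 at these signals and with an error of 0.20 that the scanner software's own model gives for a single spot. By the software's error, Ddit3 lay within 1 error of 0 and Ddit4 only just outside it.

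**Figure D3:**
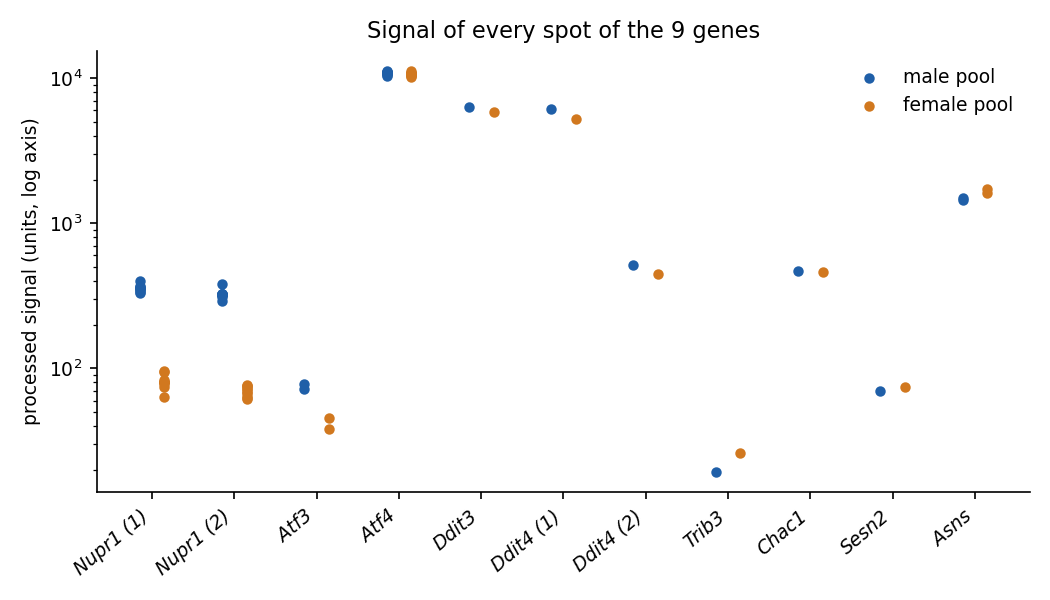
Processed signal in units (log axis) of every usable spot of the 9 genes, with the male pool in blue and the female pool in orange, and numbers in brackets for genes with 2 probes. Nupr1 and Atf3 are the genes whose pools stand clearly apart; brightness is not to be compared between probes.

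The remaining targets of ATF4 were level or lower in the male pool. Chac1, on chromosome 3, encodes an enzyme that breaks down glutathione and is a sensitive ATF4 target. It gave 472 units in the male pool and 463 units in the female pool, a difference of 0.06 (1.04-fold) that was smaller than its repeat-spot SD of 0.11. Sesn2, on chromosome 5, encodes sestrin 2, a leucine sensor that restrains mTORC1. It gave 69.9 and 74.3 units, a difference of -0.06 against an SD of 0.23, and its sign turned to 0.04 with normexp. Trib3, on chromosome 3, encodes a pseudokinase that feeds back on ATF4 and CHOP. Its signals were 19.2 units in the male pool and 26.1 units in the female pool, close to the lowest signals that counted as above background. Its difference of -0.41 compared with an SD of 0.22 and a software error of 0.35, and with normexp it was nearly 0, at -7.1e-05. Asns, on chromosome 4, encodes asparagine synthetase, a classic target of amino acid shortage. Its 2 spots gave 1487 and 1449 units in the male pool and 1731 and 1606 units in the female pool. The difference was -0.15 (1.11-fold higher in the female pool) over spots at -0.19 and -0.12. It compares with an SD of 0.06 and a software error of 0.20.

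**Figure D4:**
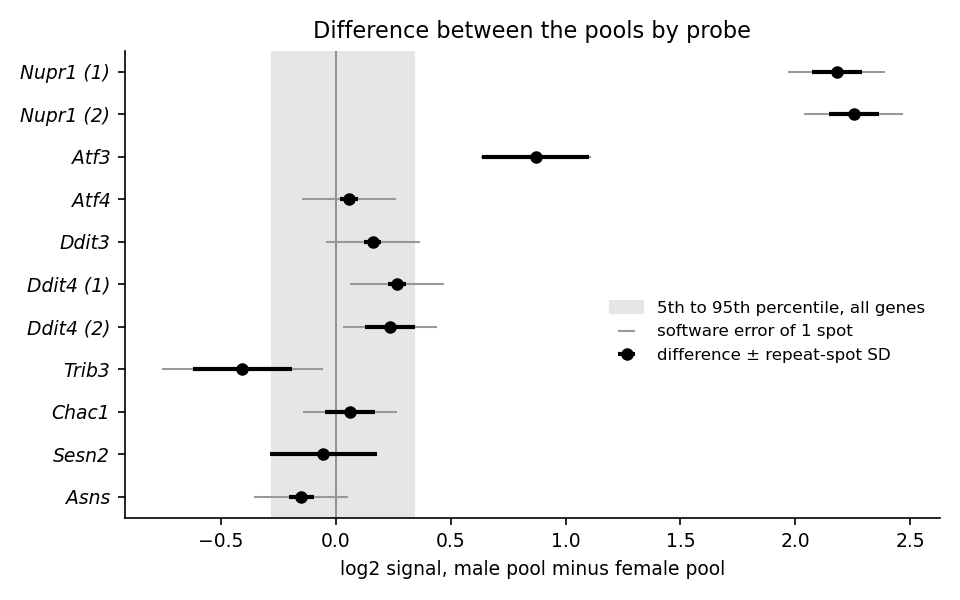
Difference between the pools by probe (log2, male minus female), with thick bars for the SD of a single repeat spot at that signal, thin bars for the software's error of a single spot and a grey band from the 5th to the 95th percentile of all genes measured on both arrays (-0.28 to 0.34). Both Nupr1 probes and Atf3 lie right of the band and Trib3 left of it, while the other 6 genes lie within it.

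Each of the 9 genes was measured above background in both pools. Of these 6 favoured the male pool and 3 the female pool, and their median difference was 0.06. Over all genes and transcripts measured on both arrays 45.0% were higher in the male pool. Past 1.5-fold in either direction were 2 of the 9, against 3.40% of all, and past 2-fold only Nupr1. As the genes were chosen with these differences known, nothing is read from these counts. Leaving out Nupr1, the median of the other 8 was 0.059. The 7 genes besides Nupr1 and Atf3 were under 1.5-fold apart.

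The rest of the pathway was described with lists of genes that act before, beside and after ATF4. Their counts stand beside 45.0% higher in the male pool and 3.40% past 1.5-fold over all genes and transcripts measured on both arrays. Kinases, phosphatase subunits and the exchange factor of eIF2 numbered 17, of which 6 favoured the male pool and 11 the female pool, none past 1.5-fold, and the median was -0.007. The kinase genes Eif2ak3, which encodes PERK, and Eif2ak4, which encodes GCN2, were at -0.04 and -0.005, and Ppp1r15a, which encodes the stress-induced phosphatase subunit GADD34, was at 0.02. The largest differences of this list were those of Nck1, an adaptor, at -0.20 and Impact, an inhibitor of GCN2 activation, at -0.13 (from a patch). The genes of the gamma subunit of eIF2 lie on the sex chromosomes and were looked at because of it. X-linked Eif2s3 was at -0.68 on its first probe (1.60-fold higher in the female pool) and at -0.52 on its second. Y-linked Eif2s3y gave 376 units in the male pool and 7.36 units, not well above background, in the female pool, at least 29.9-fold.

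Other targets of ATF4 and CHOP each differed less between the pools than Nupr1. Of 41 listed 36 were matched to probes and 34 measured on both arrays. Of the 34, 14 favoured the male pool and 20 the female pool, around a median of -0.03. None was past 1.5-fold, against 3.40% of all genes and transcripts measured on both arrays. The part of ATF4 in the difference of Nupr1 was not tested. Gdf15, a stress hormone gene, was at 0.46 on a dim probe with an SD of 0.22, and Ddr2, a collagen receptor gene, was at 0.36. The serine synthesis genes Phgdh and Psat1 were at 0.155 and 0.04, the cystine carrier gene Slc7a11 at 0.24 (from a patch) and the transcription factor gene Atf5 at 0.04. Cytosolic aminoacyl-tRNA synthetase genes, which ATF4 raises as a group, had 4 of 20 higher and 16 lower, with a median of -0.03, and Rars1 and Nars1 were furthest from 0, at -0.14 and -0.12. In the list of the IRE1-XBP1 and ATF6 arms of the unfolded protein response 4 of 27 were higher and 23 lower around a median of -0.06. There the chaperone gene Hspa5 was at -0.10 and Xbp1, the transcription factor gene of the IRE1 arm, at -0.155. Mbtps2, a protease gene that activates ATF6, was the single member past 2-fold, at 1.05 on 1 spot in a patch, and its other probe was at 0.02.

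Programmes that can raise single members of the 9 genes by other routes were also set beside them. Genes induced by glucocorticoids, as Ddit4 is, had 4 of 15 higher and 11 lower, with a median of -0.10. Among them Pdk4, a metabolic kinase gene, was at 0.74, and Zbtb16, a transcription factor gene, was at -0.66. Each rested on 1 dim spot, at 34.3 against 21 units for Pdk4 and 42.6 against 68.9 units for Zbtb16 (male against female pool). Hypoxia-induced genes had 6 of 17 higher and a median of -0.04, with Adm, the adrenomedullin gene, at 0.33 and Higd1a, a mitochondrial gene, at -0.28 on a spot in a patch. Targets of p53, a route to Sesn2, had 5 of 14 higher and a median of -0.05. Tp53inp1 was at -0.43 on 1 dim spot. Cdkn1a, a cell cycle inhibitor gene, was at -0.27 on its brightest probe and -0.85 on the other. Regulators of mTORC1, on which the products of Sesn2 and Ddit4 act, had 4 of 17 higher, a median of -0.04 and extremes of -0.13 for Tsc1 and 0.15 for Sesn3. Relatives of the 9 genes had 4 of 14 higher and a median of -0.04. Nupr2, the paralogue of Nupr1, was at -0.13 (from a patch), Trib1 and Trib2 at 0.12 and -0.24 and Chac2 at -0.17. Atf7 was the single relative past 2-fold, at -1.42 on 1 dim spot in a patch. Some genes stand in more than 1 of these lists, so the counts overlap.

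**Figure D5:**
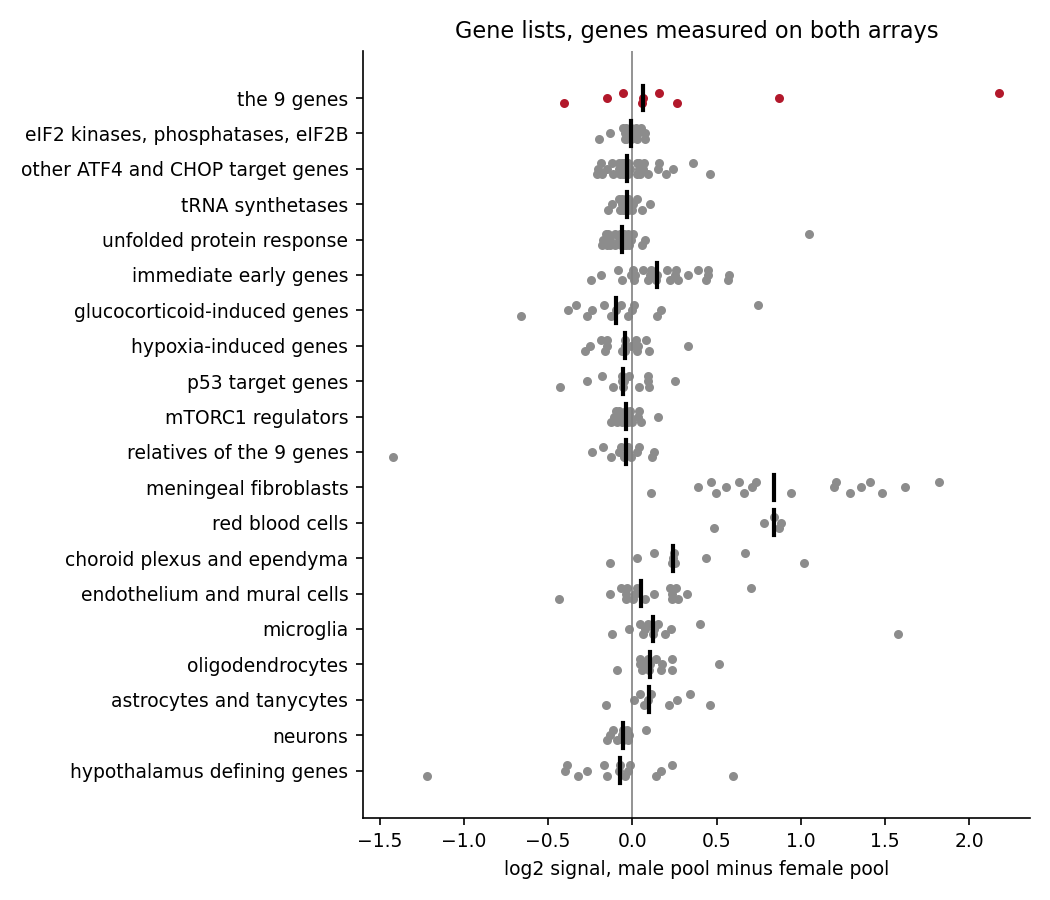
Difference between the pools (log2, male minus female) of every gene measured on both arrays in each list but those of the anterior pituitary and the eIF2 gamma subunits, 1 point per gene, with a black bar at the list's median and the 9 genes in red. The stress lists cluster near 0 with medians between -0.10 and 0.14, the meningeal fibroblast and red blood cell lists have medians of 0.84, and Nupr1 at 2.18 is the rightmost point.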

How the data were processed

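Each array file, as deposited, holds the scanner software's processed signal, an intensity with background subtracted and no scaling between arrays, and the median intensity of each spot and of its local background. The file headers name Feature Extraction 11.5.1.1, and the submitters' processing notes name version 9.1. The deposited series matrix holds intensity values of unstated scaling. Its 42947 values per array were checked to be the processed signal as a percentage of the array's 75th percentile, to within 0.4% (ratios from 0.996 to 1.004).

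Of 58717 rat spots, 664 that carried an outlier flag in 1 or both pools were left out. Each array's 75th percentile was subtracted from its log2 signals, which were then averaged over a probe's spots (Python 3.11.15, pandas 2.3.3). A probe counted as well above background when over 50% of its spots did. Where only 1 pool was, the other was raised to the lowest such signal of its array and the fold written as "at least". RefSeq accessions were matched to symbols of assembly GRCr8, which named 46.3% of 45591 probes. A gene was represented by its probe with the highest mean signal, and every probe of the 9 genes is given. Repeat-spot SDs were pooled over probes in 5 signal ranges, and the functions were tested on simulated data. A spot lay in a patch where, among the 18 closest spots of other probes, 2 or more differed by 2-fold or more in 1 direction. With 1 array per sex no test was run, and the number of arrays limits the precision. Both arrays sat on 1 slide and were scanned together. The 9 genes, the lists and the rule for named genes (all 9, the members of each stress list past 2-fold or else its 2 largest differences, and the extremes of the cell type lists) were chosen with earlier results of these data known. Other genes named from the stress lists (kinases, serine synthesis genes, Slc7a11, Atf5, Hspa5, Xbp1, Maff, Ier2 and relatives) were added to the text after their values were seen, as were the pituitary list and the eIF2 gamma subunits. Alternatives were other scalings, normexp background correction (limma 3.58.1, offset 50, on median spot signals, in place of mean signals), other handling of probes, flags and patches, and the series matrix. No likeness of patterns was computed, since 2 arrays give 1 difference per gene.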

Additional observations from a re-analysis of the deposited data

How the results depend on the processing

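Across 8 alternatives Nupr1 stayed higher in the male pool, between 1.62 and 2.22 on the log2 scale, and 1.62 (3.07-fold) was the value with normexp, whose offset shrinks log differences of dim probes by construction. Of the 9 genes 8 kept their sign, and Sesn2 turned to 0.042 with normexp. Trib3, counted among the 8, was nearly 0 with normexp, at -7.1e-05. The number of the 9 genes past 1.5-fold was 2, and 1 with normexp, where Atf3 was at 0.49. Their median lay between 0.031 and 0.08. The percentile of Nupr1 signal in the male pool was 71.8 with normexp. With the series matrix, which lacks the dimmest spots so that ranks fall by construction, it was 56.6 for the male pool and 30 for the female pool. The count of genes and transcripts at least 2-fold apart was 1090, of which 662 were higher in the male pool. It was 491 with normexp, 426 over probes well above background on both arrays, and 141 without spots in patches, of which 109 were higher in the male and 32 in the female pool. The median of each of 21 lists kept its sign in every alternative. The median over all genes and transcripts measured on both arrays lay between -0.047 and 0.0078, and was positive with normexp. The sign of a list median close to 0 is therefore not read. Ddit3 had no value without patches. No paired analysis was possible because each sex has 1 array. The number of arrays limits every value, and dim genes such as Trib3, Gdf15, Pdk4, Tp53inp1 and Kiss1 lay close to background in 1 or both pools.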
